A study of Mus musculus with 6 samples.

Results

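The 7 genes described here encode the main subunits of the voltage-gated calcium channels of the atrium. Cacna1c and Cacna1d encode L-type pores, Cacna1g and Cacna1h encode T-type pores, Cacnb2 encodes a cytoplasmic beta subunit, and Cacna2d1 and Cacna2d2 encode alpha2delta subunits. They were chosen by symbol, not by their values, from the 54093 genes of the expression table, and each symbol had 1 row. Right atrial free wall was taken at P21 from wild-type C57BL/6 mice of either sex. Of the 6 libraries, 3 came from sham-operated mice and 3 from mice with volume overload (VO). VO was produced by an aortocaval fistula (ACF) made at P7, which sends arterial blood straight into the inferior vena cava. The fistula loads the whole heart and not the right atrium alone. The sources used here do not say whether a library is 1 animal or a pool, so p-values measure only the spread between these samples.

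Voltage-gated calcium channels open when the membrane depolarises and let calcium into the cell. L-type channels carry the sustained calcium current that triggers calcium release from the sarcoplasmic reticulum, and Cacna1c is the main L-type pore of working muscle. Cacna1d opens at more negative voltages and is known for its part in sinoatrial pacemaking and in atrial muscle. T-type channels open briefly at still more negative voltages. Cacna1g is the T-type pore tied to the adult node and conduction system, and Cacna1h is prominent in the embryonic heart. L-type pores assemble with beta and alpha2delta subunits, which bring them to the membrane and set their gating, whereas T-type pores do not need either.

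The pore genes can be told apart in the codons of the selectivity filter, the ring of acidic residues that lets calcium through. All 4 genes carry a glutamate codon in repeats I and II of the pore, and they part in repeats III and IV. The 27 coding bases around each of these codons are shown because they separate the L-type from the T-type genes whose shares are compared below. They were read on the coding strand from the GENCODE M21 transcripts on GRCm38, with the filter codon in capitals. In repeat III they were:
Cacna1c: gtctccaccttcGAAgggtggccagag
Cacna1d: gtctcaacttttGAGggctggcccgcg
Cacna1g: ctggcctccaagGATggctgggttgac
Cacna1h: ctgtcatccaagGATggctgggtaaac
In repeat IV they were:
Cacna1c: tgtgccaccggaGAGgcctggcaggac
Cacna1d: tgtgcaacagggGAAgcctggcaggag
Cacna1g: gtctccactggtGACaactggaatggt
Cacna1h: gtgtccactgggGACaactggaatggg
The capitals are glutamate codons in Cacna1c and Cacna1d and aspartate codons in Cacna1g and Cacna1h. In repeat III, 20 of 27 bases were identical between the L-type genes and 23 of 27 between the T-type genes, against 14 of 27 between Cacna1c and Cacna1g. In repeat IV the same counts were 22, 24 and 14. The repeat III bases lie in exons 27 and 28 of Cacna1c (chr6:118654455-118656138, an intron between them) and in exons 27 and 28 of Cacna1d (chr14:30099243-30100722, also across an intron). For the T-type genes they lie in exon 24 of Cacna1g (chr11:94426459-94426485) and exon 24 of Cacna1h (chr17:25383496-25383522). The repeat IV bases lie in exon 36 of Cacna1c (chr6:118614050-118614076), exon 36 of Cacna1d (chr14:30075944-30075970), exon 32 of Cacna1g (chr11:94416415-94416441) and exon 31 of Cacna1h (chr17:25377771-25377797). All 4 genes are on the minus strand.

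A second stretch separates the pores by their partner. The linker between repeats I and II of L-type pores holds the site that binds the beta subunit, and the 42 coding bases of that stretch are given because Cacnb2 is compared with these pores below:
Cacna1c: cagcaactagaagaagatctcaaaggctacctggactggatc
Cacna1d: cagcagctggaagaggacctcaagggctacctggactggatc
The stretch is in exon 9 of Cacna1c (chr6:118734918-118734959) and exon 9 of Cacna1d (chr14:30142612-30142653), and 37 of its 42 bases were identical. The residue pattern used to find it had 0 matches in Cacna1g and 0 in Cacna1h, which says only that the pattern is not in those coding sequences.

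Between 15963082 and 17237903 fragments fell on genes in each library. VO replicate 1 stood furthest from the others, with a correlation of log2 values of at most 0.934 with any other library. VO replicate 3 also stood apart, at 0.915 to 0.945. The sham libraries and VO replicate 2 were at 0.952 to 0.967 with one another, and all pairs ranged from 0.910 to 0.967. The 10 working cardiomyocyte markers, led by Myl7 and Actc1, were present in all libraries. Their summed FPKM (fragments per kilobase of gene, divided by a library size that was 94.3% to 108% of the fragments on genes) was 20643 to 26717 in sham and 9567 to 17735 in VO, with 10 of 10 lower in VO and 6 of these at an unadjusted limma p under 0.05. Of all 12627 genes tested, 6503 were lower in VO and 12% had an unadjusted limma p under 0.05. The summed immune markers, led by Lyz2 and C1qb, were 226 to 314 FPKM in sham, and 262, 320 and 805 FPKM in VO, with 805 in VO replicate 1. Skeletal muscle markers summed to at most 5.04 FPKM, with Myh1 at 0 in every library. In such bulk tissue, fewer cells of a type and less RNA per cell cannot be told apart.

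All 7 subunit genes passed the filter of a mean of at least 1 FPKM, as did 12627 genes in all. Each subunit was covered by 603 to 2835 fragments per library, for which counting error alone is 1.88% to 4.07% of the value. Of the 7 genes, 0 passed an adjusted p of 0.05 (limma with Benjamini-Hochberg adjustment), where the background over all tested genes was 0.00792%, or 1 gene. At an unadjusted limma p under 0.05 the count was also 0 of 7, against a background of 12%. In 0 of 7 the sham and VO libraries did not overlap, against a background of 21.2%. The study's own test of these samples, DESeq2, called far more genes at an adjusted p under 0.05. The difference between the 2 methods was not examined. On the log2 scale, 3 of the 7 were higher and 4 lower in VO, with a median difference of -0.01, the same as the median of -0.01 over all tested genes. The 95% intervals of the 7 VO-to-sham folds, taken on the FPKM plus 0.1 scale, lay between 0.535, the lower bound for Cacna1g, and 1.35, the upper bound for Cacna1h.

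**Figure D1:**
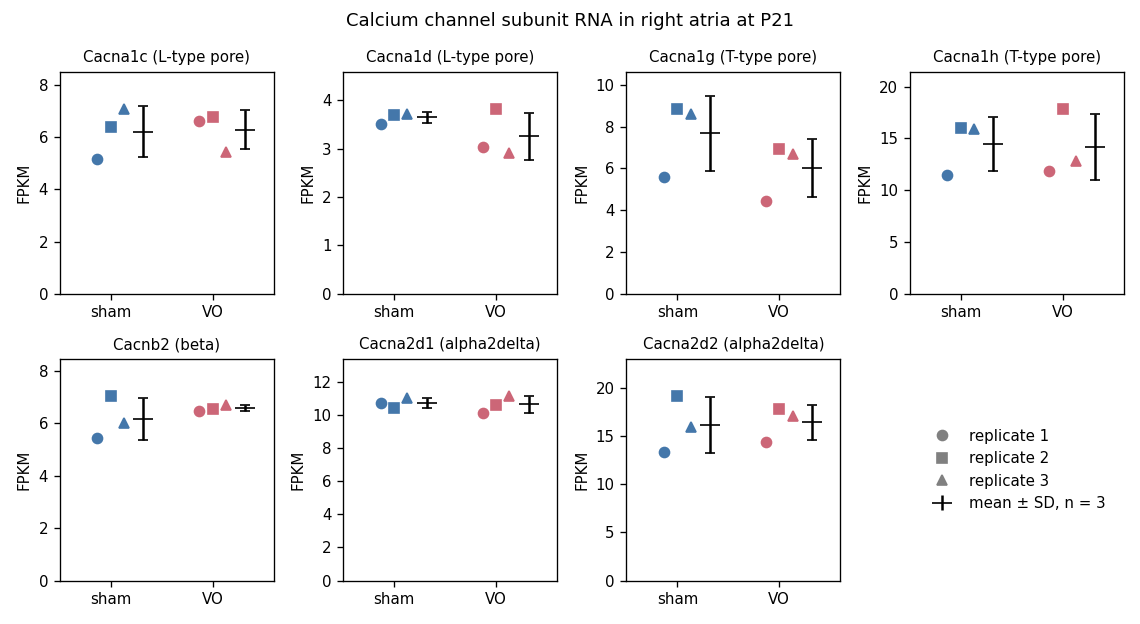
FPKM (vertical axis, from 0) of the 7 calcium channel subunit genes in the 3 sham (blue) and 3 VO (red) libraries, with symbols for the replicates and the mean ± SD in black. The groups overlap in every panel, and the relative spread is widest for Cacna1g (4.44 to 8.83 FPKM) and narrowest for Cacna2d1 (10.2 to 11.2 FPKM).

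The L-type pores had overlapping levels in sham and VO. Cacna1c (ENSMUSG00000051331, chr6:118587240-119196418, GRCm38, minus strand) was at 5.15, 6.41 and 7.07 FPKM in sham replicates 1 to 3 and at 6.63, 6.78 and 5.44 FPKM in VO replicates 1 to 3. The VO values lay inside the sham range. Its mean was 6.21 ± 0.974 FPKM in sham and 6.28 ± 0.737 in VO (SD, n = 3 each), a log2 difference of 0.02 (SE 0.15, 95% interval -0.34 to 0.39, limma adjusted p = 0.955). The sign was negative without sham replicate 1 (-0.10), VO replicate 1 (-0.02) or VO replicate 2 (-0.03).

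Cacna1d (ENSMUSG00000015968, chr14:30039939-30491455, minus strand) was at 3.52, 3.70 and 3.73 FPKM in sham. In VO it was at 3.04, 3.82 and 2.90 FPKM. VO replicates 1 and 3 lay below all sham libraries and VO replicate 2 above them. The mean was 3.65 ± 0.114 FPKM in sham and 3.25 ± 0.491 in VO, and the log2 difference of -0.17 (SE 0.14, 95% interval -0.50 to 0.15) had a limma adjusted p of 0.575. The difference was -0.29 without VO replicate 2 and -0.10 without VO replicate 3. The coefficient of variation was 3.13% among the sham libraries and 15.1% among the VO libraries. Cacna1d shares at least 589 exonic bases with Chdh on the opposite strand, so fragments there cannot be assigned without strand.

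The T-type pores varied more between libraries of the same group, with coefficients of variation of 18.0% to 23.4% against 3.13% to 15.7% for the L-type pores. Cacna1g (ENSMUSG00000020866, chr11:94408391-94474198, minus strand) was at 5.61, 8.83 and 8.61 FPKM in sham and at 4.44, 6.95 and 6.71 FPKM in VO. Replicate 1 was the lowest library of each group, and the 2 other sham libraries lay above all VO libraries. With means of 7.69 ± 1.80 and 6.04 ± 1.39 FPKM it had the largest difference of the 7 genes, at -0.34 on the log2 scale (SE 0.24, 95% interval -0.90 to 0.22, limma adjusted p = 0.522). Among all tested genes, 24.9% had a larger absolute difference. Its value was -0.55 without sham replicate 1 and -0.14 without VO replicate 1.

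Cacna1h (ENSMUSG00000024112, chr17:25374285-25433783, minus strand) was the most abundant pore gene per length. It was at 11.4, 16.0 and 16.0 FPKM in sham and at 11.8, 17.8 and 12.9 FPKM in VO. The lowest and the highest library were thus 1 sham and 1 VO library. Its mean was 14.5 ± 2.61 FPKM in sham and 14.2 ± 3.20 in VO, with a log2 difference of -0.04 (SE 0.20, 95% interval -0.51 to 0.44, limma adjusted p = 0.948). The sign turned when VO replicate 1 was left out (0.08), as it did under 2 other scalings of the libraries. It also turned without sham replicate 2 (0.04), sham replicate 3 (0.04) or VO replicate 3 (0.02). Cacna1h shares at least 158 exonic bases with Tpsg1 on the opposite strand.

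Shares within a library do not depend on its scaling. The L-type genes made up 33.7%, 28.9% and 30.5% of the summed pore FPKM in sham and 37.3%, 30.0% and 29.9% in VO. The highest share was in VO replicate 1, and the 2 other VO libraries lay within the sham range. The means were 31.1 ± 2.41% and 32.4 ± 4.24%, a difference of 1.33 percentage points (exact two-sided permutation test, p = 0.7, where the smallest p with 3 against 3 is 0.1). Without VO replicate 1 the difference was -1.12 points. In every library the T-type genes thus held the larger part of pore RNA per length, with Cacna1h alone at 45.1 ± 0.637% in sham and 47.3 ± 2.63% in VO.

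That balance rests on the length used. The deposited length of each gene is the union of all its annotated exons, which is 21191 bases for Cacna1c, although its longest annotated coding sequence has 6666 bases. The deposited lengths of Cacna1d, Cacna1g and Cacna1h are 12621, 10137 and 9763 bases. Counted as fragments without division by length, the L-type genes held 45.0 ± 2.52% of pore fragments in sham and 46.9 ± 5.04% in VO, with 52.7% in VO replicate 1. The difference between the groups was 1.88 points on this scale (exact permutation p = 0.7). Adding the other L-type and T-type pore genes changed the FPKM difference to 1.26 points.

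**Figure D2:**
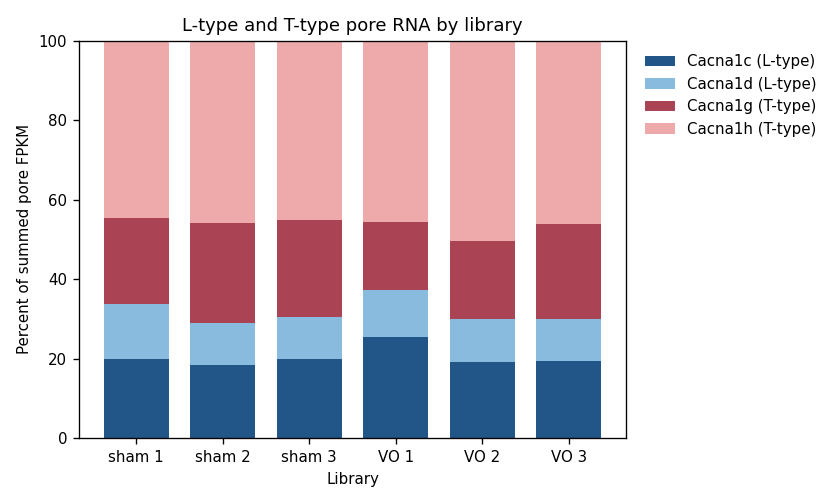
Percent of the summed FPKM of the 4 pore genes (vertical axis) in each library, with the L-type genes in blue and the T-type genes in red. The blue part is between 28.9% and 37.3% of each bar, and Cacna1h is the largest single part in all 6 libraries.

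Within the L-type class, Cacna1d supplied 40.6%, 36.6% and 34.5% of the FPKM in sham and 31.4%, 36.0% and 34.8% in VO. The groups overlapped, with a mean of 37.3 ± 3.08% in sham and 34.1 ± 2.38% in VO (difference -3.18 points, exact permutation p = 0.3). The difference was -1.51 points without sham replicate 1 and -1.85 without VO replicate 1.

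Within the T-type class, Cacna1g supplied 32.9%, 35.6% and 35.1% in sham and 27.3%, 28.1% and 34.3% in VO. VO replicates 1 and 2 lay below all sham libraries and VO replicate 3 among them. The means were 34.5 ± 1.43% and 29.9 ± 3.83%, a difference of -4.62 points (exact permutation p = 0.2). It ranged from -6.83 to -3.33 points when each library was left out in turn.

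Cacnb2 (ENSMUSG00000057914, chr2:14603088-14987908, plus strand) is the beta subunit gene most used by the heart. It was at 5.45, 7.03 and 5.99 FPKM in sham and at 6.47, 6.56 and 6.68 FPKM in VO. The 3 VO libraries lay inside the sham range, and their coefficient of variation was 1.56% against 13.1% in sham. The log2 difference was 0.10 (SE 0.12, 95% interval -0.18 to 0.38, limma adjusted p = 0.702), and it was 0.02 without sham replicate 1 and 0.20 without sham replicate 2. Its exons overlap 3 opposite-strand genes.

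Relative to the pores it can bind, Cacnb2 stood at 0.629, 0.695 and 0.555 per unit of L-type FPKM in sham and at 0.669, 0.619 and 0.801 in VO. The highest ratio was in VO replicate 3, where both L-type pores had their lowest VO values. The mean ratio was 0.626 ± 0.0700 in sham and 0.696 ± 0.0938 in VO, a log2 difference of 0.15 (exact permutation p = 0.5), and 0.05 without VO replicate 3.

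The alpha2delta genes were the most abundant auxiliary subunits. Cacna2d1 (ENSMUSG00000040118, chr5:15934691-16374511, plus strand), the alpha2delta gene long known from heart and skeletal muscle, was at 10.8, 10.5 and 11.1 FPKM in sham and at 10.2, 10.7 and 11.2 FPKM in VO. It was the steadiest of the 7 genes, with the highest library at 1.10 times the lowest. The log2 difference of -0.01 had the narrowest 95% interval, -0.23 to 0.20 (SE 0.09, limma adjusted p = 0.953). As a fold that is 0.850 to 1.15. The sign was positive as TPM (0.12), a scaling that moved the median of all tested genes to 0.13. It was also positive without VO replicate 1 (0.02) or sham replicate 3 (0.005).

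Cacna2d2 (ENSMUSG00000010066, chr9:107399612-107529343, plus strand) was the most abundant of the 7 genes per length. It was at 13.3, 19.1 and 16.0 FPKM in sham and at 14.3, 17.8 and 17.1 FPKM in VO, so that the VO libraries lay inside the sham range. The log2 difference was 0.03 (SE 0.16, 95% interval -0.34 to 0.41, limma adjusted p = 0.940), and -0.10 without sham replicate 1. It was also negative without VO replicate 2 (-0.03) or VO replicate 3 (-0.00086). Cacna2d2 shares at least 82 exonic bases with the antisense gene Gm17141.

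Of the summed alpha2delta FPKM, Cacna2d2 made up 55.3%, 64.6% and 59.1% in sham and 58.5%, 62.5% and 60.5% in VO. The means of 59.7 ± 4.70% and 60.5 ± 2.01% differed by 0.841 points (exact permutation p = 0.9), with a negative sign without sham replicate 1 (-1.35) and without VO replicate 2 (-0.163). Counted as fragments without division by length, the Cacna2d2 share was 48.7 ± 4.90% in sham and 49.5 ± 2.10% in VO. Both alpha2delta genes together were at 2.78, 2.93 and 2.51 per unit of L-type pore FPKM in sham and at 2.53, 2.68 and 3.39 in VO. As for Cacnb2, the highest ratio was in VO replicate 3. The log2 difference was 0.06 (exact permutation p = 0.8), -0.07 without VO replicate 3 and -0.004 without sham replicate 3.

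The order of the 7 genes by mean FPKM over the 6 libraries was Cacna2d2 (16.3), Cacna1h (14.3), Cacna2d1 (10.7), Cacna1g (6.86), Cacnb2 (6.36), Cacna1c (6.24) and Cacna1d (3.45). Their percentiles of mean FPKM among the tested genes ran from 31.3 for Cacna1d to 78.6 for Cacna2d2. The ranges of neighbours did not overlap at 3 steps: Cacna1h was above Cacna2d1, Cacna2d1 above Cacna1g and Cacna1c above Cacna1d in 6 of 6 libraries. Cacna2d2 exceeded Cacna1h in 5 of 6 libraries with overlapping ranges, and Cacna1g exceeded Cacnb2 in 5 of 6. Cacnb2 and Cacna1c could not be ordered on this scale, since each was higher in 3 of 6 libraries. The order also rests on the length used. Without division by length, Cacna1c had 1697 to 2550 fragments per library and Cacnb2 1121 to 1603. Cacna2d1 then exceeded Cacna1h in sham replicate 1 (2080 against 1739 fragments), VO replicate 1 (2290 against 2096) and VO replicate 3 (2280 against 2065).

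Some of the spread among the 6 libraries was shared between the genes. As a description over 6 libraries of 2 groups, with no test, Pearson's r of the log2 values was 0.83 between Cacna2d2 and Cacnb2, 0.79 between Cacna1h and Cacna2d2 and 0.76 between the T-type pores. It was 0.43 between the L-type pores and -0.31, the lowest, between Cacna1c and Cacna2d1. The genes whose values over the 6 libraries were most like each subunit, out of 12626 searched, were Wasf1 (0.991), Plekha5 (0.988) and Slc45a4 (0.988) for Cacna1c. They were Podn (0.994), Slc45a3 (0.992) and A330023F24Rik (0.988) for Cacna1d. For Cacna1g they were Dysf (0.998), a membrane repair gene of muscle, Pak6 (0.997) and Usp13 (0.993). For Cacna1h they were Tspyl2 (0.986), Thrap3 (0.981) and Amigo1 (0.981), and for Cacnb2 Limd1 (0.981) and Efr3b (0.970). For Cacna2d1 they were Znhit3 (0.995), mt-Cytb (0.995) and Rdx (0.981), and for Cacna2d2 Urb1 (0.994), Med24 (0.985) and Rint1 (0.982). Between 14 and 41 genes reached an r of 0.95 with a given subunit, so the genes named are not set apart from the next.

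The low libraries of Cacna1g were also low in sinoatrial node markers. Hcn4, the main pacemaker channel gene, was at 3.07 FPKM in sham replicate 1 and 1.97 FPKM in VO replicate 1, against 4.34 to 9.61 FPKM in the other 4 libraries. Shox2, a transcription factor of the node, was at 2.54 and 1.07 FPKM in the same libraries and at 3.69 to 6.34 FPKM in the others. Of the 9 node markers, led in level by Smoc2 and Vsnl1, 8 were tested, 4 were higher and 4 lower in VO, and 1, or 12.5% beside 12% of all tested genes, had an unadjusted limma p under 0.05. That gene was Tbx18, at 3.48 ± 0.766 FPKM in sham and 5.34 ± 1.41 in VO, highest in VO replicate 1 (limma adjusted p = 0.414). Hcn4, Shox2, Cpne5 and Tbx18 were chosen for naming after their values were seen. The sum of the 9 markers was 27.4, 48.1 and 33.5 FPKM in sham and 25.3, 35.5 and 47.3 FPKM in VO, lowest in replicate 1 of each group. The sum and Cacna1g were both highest in replicate 2 of sham, while in VO the sum was highest in replicate 3 and Cacna1g in replicate 2. How far the amount of node tissue enters the Cacna1g values was not tested.

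**Figure D3:**
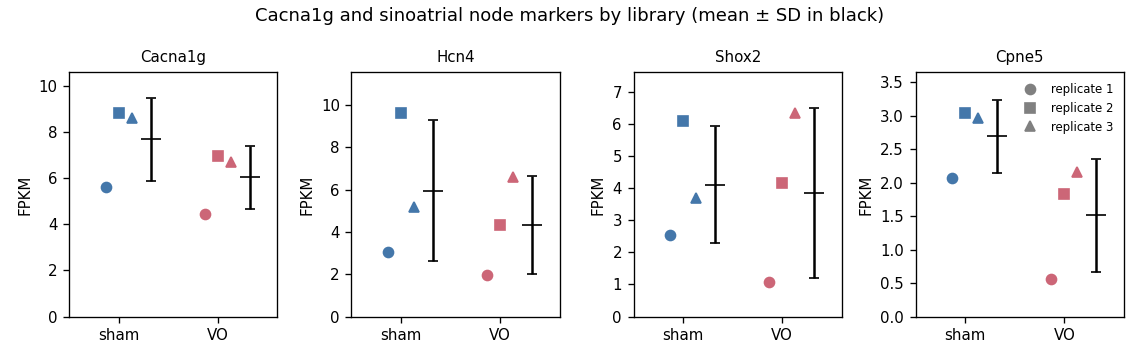
FPKM (vertical axes, from 0) of Cacna1g and of the sinoatrial node markers Hcn4, Shox2 and Cpne5 in the 3 sham (blue) and 3 VO (red) libraries, with symbols for replicates and the mean ± SD in black. Replicate 1 (circle) is the lowest library of each group in every panel, for example 1.97 FPKM for Hcn4 and 4.44 FPKM for Cacna1g in VO replicate 1.

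The channel family has 19 further subunit genes in the mouse list used here, and 4 of them passed the filter. Cacng7, a gamma subunit gene, was at 3.53, 3.16 and 3.47 FPKM in sham and at 4.65, 4.05 and 3.64 FPKM in VO. The groups did not overlap, and the log2 difference was 0.27 (SE 0.13, limma adjusted p = 0.432), or 0.18 without VO replicate 1. Cacna2d3, another alpha2delta gene, was at 2.03, 1.78 and 1.73 FPKM in sham and at 1.25, 1.45 and 1.72 FPKM in VO, also without overlap. Its log2 difference was -0.32 (SE 0.19, limma adjusted p = 0.486), or -0.21 without VO replicate 1. The beta genes Cacnb3 (mean 3.69 FPKM) and Cacnb1 (1.84 FPKM) had log2 differences of 0.05 and -0.02, both of which changed sign with a library left out or, for Cacnb1, with TPM. Cacna1a, the P/Q-type pore of neurons, Cacnb4 and Cacng4 averaged 0.601, 0.604 and 0.179 FPKM over the 6 libraries. The other 12 genes were under 0.1 FPKM, Cacng6 being at 0 in every library.

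Of 22 genes whose products regulate these channels, 17 were tested, 6 were higher and 11 lower in VO. Their median log2 difference was -0.08, beside -0.01 for all tested genes, and it was 0.06 when libraries were scaled as TPM. None of the 17 passed an adjusted p of 0.05, and 2, or 11.8%, had an unadjusted p under 0.05, beside the 12% of all tested genes. The 2 became 1 with TPM, with voom, without sham replicate 3 and without VO replicate 3. Lrrc10, a cardiac leucine-rich repeat protein that binds the Cacna1c channel and modifies its gating, was at 167, 136 and 156 FPKM in sham and at 59.2, 85.3 and 85.0 FPKM in VO. The 3 VO libraries lay far below the 3 sham libraries, with a log2 difference of -1.02 (SE 0.17, limma adjusted p = 0.283). Gem, a small GTPase that lowers L-type channels at the membrane, averaged 8.21 ± 1.68 FPKM in sham and 5.97 ± 0.728 in VO, again without overlap (log2 difference -0.44, limma adjusted p = 0.410, and -0.29 without sham replicate 3). Camk2d, the cardiac CaM kinase gene, averaged 12.8 ± 0.724 and 11.2 ± 0.208 FPKM (-0.18, limma adjusted p = 0.439, and -0.05 with TPM). Ahnak, a scaffold, was on the higher side, at 33.4 ± 5.09 FPKM in sham and 38.0 ± 4.17 in VO, with overlapping groups (0.19, limma adjusted p = 0.567, and 0.06 without sham replicate 1).

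The list of 19 calcium cycling genes covers calcium release, storage and removal and their regulators. It also holds genes of T-tubules and membrane structure, such as Jph2, Bin1 and Cav3. All 19 were tested, 6 were higher and 13 lower in VO. Their median log2 difference was -0.24, and it was -0.10 as TPM, 0.02 after quantile normalization and -0.10 without VO replicate 1. None passed an adjusted p of 0.05, while 5 lower and 1 higher gene had an unadjusted p under 0.05, or 31.6% beside 12% of all tested genes. The 5 lower genes became 3 without sham replicate 3 and 3 with quantile normalization. The working cardiomyocyte sum moved the same way, and its part in these values was not tested. Jph2, which ties T-tubules to the sarcoplasmic reticulum, was at 112, 110 and 103 FPKM in sham and at 44.5, 66.9 and 69.8 FPKM in VO. Its groups did not overlap, and the log2 difference was -0.87 (SE 0.18, limma adjusted p = 0.325).

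Slc8a1, the sodium-calcium exchanger, averaged 52.9 ± 0.823 FPKM in sham and 39.3 ± 2.78 in VO (-0.43, limma adjusted p = 0.344). Cav3, the muscle caveolin, averaged 72.0 ± 16.7 and 39.4 ± 7.62 FPKM (-0.86, limma adjusted p = 0.344). Both were picked out by the study from RNA-seq of these samples, from the genes its DESeq2 test called lower in VO. Their direction here is therefore not independent evidence. The study also reported both as lower in VO by qRT-PCR. Itpr2, an inositol trisphosphate receptor, was the gene on the other side, at 3.07 ± 0.305 FPKM in sham and 4.01 ± 0.326 in VO (0.37, limma adjusted p = 0.406). Bin1, which shapes T-tubule membrane, and Sri, a calcium-binding protein, followed at 0.28 and 0.19, with limma adjusted p of 0.498 and 0.540. Bin1 was at 0.10 without VO replicate 1 and Sri at 0.07 without sham replicate 2. The release channel gene Ryr2, the direct partner of the L-type channel in the dyad, had a log2 difference of -0.13 (limma adjusted p = 0.684), and was named after its values were seen.

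**Figure D4:**
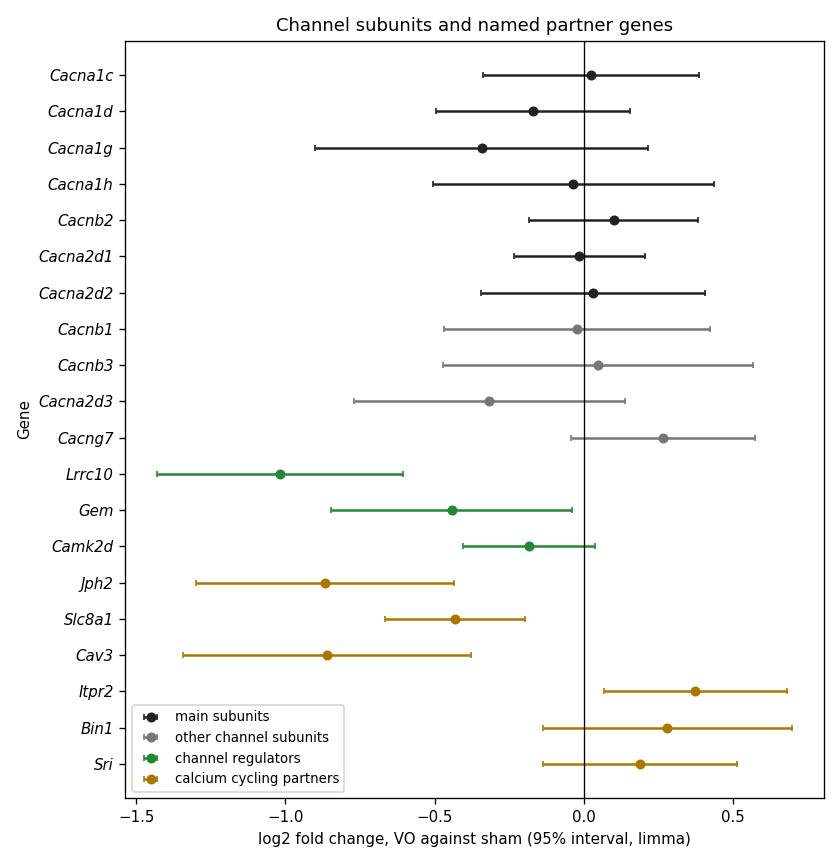
Log2 fold change of VO against sham (horizontal axis, points) with 95% intervals from limma for the 7 main subunits (black), the 4 other tested subunits (grey), the 3 named regulators that were lower (green) and the named calcium cycling partners (brown). The intervals of all 11 subunits span 0, while those of Lrrc10 (-1.02), Gem (-0.44), Jph2 (-0.87), Slc8a1 (-0.43), Cav3 (-0.86) and Itpr2 (0.37) do not, though none of these passed after adjustment.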

How the data were processed

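Right atrial RNA of 3 sham and 3 VO libraries was sequenced as paired 150-base reads. Per the processing notes and the study's methods, the authors aligned the reads with HISAT2 2.0.5 to GRCm38/mm10, counted them per gene with featureCounts 1.5.0-p3 and deposited FPKM values, computed from read numbers and gene length. FPKM times length came out as whole multiples of 1 fragment for 100% of values (tolerance 0.01), which gave the fragments per library. The fragments were used for depth and for a voom alternative. The library size that the FPKM values imply was 94.3% to 108% of the fragments on genes (94.3% in sham replicate 1, 108% in VO replicate 1). Scaling by median of ratios gave a factor of 1 in all 6 libraries, so the deposited values appear to be already scaled between libraries, which no source used here states. The values used equal the deposited ones. The strand setting of the counting is not given in the sources used here. 1 incomplete row was left out, leaving 54093 genes.

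The 12627 genes averaging 1 FPKM or more were fitted on log2(FPKM + 0.1) with limma 3.58.1 (R 4.3.3), with a trend in eBayes, two-sided, and Benjamini-Hochberg adjustment over all of them. Fold changes on this scale understate those of low genes. Shares and ratios were compared by an exact two-sided permutation test over libraries. Scripts were tested on simulated data. Coordinates and coding sequences came from GENCODE M21, whose gene coordinates equal those of the table for 98.4% of shared genes. The exon unions equalled the deposited lengths of all 7 subunit genes.

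The 7 genes and all lists were chosen with earlier results of these data known. Besides the 7, the text names the other subunits with a mean of at least 0.1 FPKM, the 3 tested regulators and the 3 tested calcium cycling genes of smallest p in each direction, the 3 genes of highest Pearson r with each subunit, and of the cell type lists the genes at 0 everywhere and the highest in level. Hcn4, Shox2, Cpne5, Tbx18, Uchl1 and Th fall outside this rule and were chosen after their values were seen. Some genes that meet these rules are not reported here. Same-numbered sham and VO libraries did not deviate together (correlations of deviations -0.11, 0.01 and -0.03), so no pairing was used. In the summed marker lists, fibroblasts had 1029 to 1054 FPKM in sham and 1050 to 1459 in VO, endothelium 202 to 213 and 213 to 222, smooth muscle and pericytes 250 to 320 and 195 to 266, and ventricle 121 to 308 and 92.7 to 143.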

Additional observations from a re-analysis of the deposited data

How the results depend on the processing

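The 7 subunit genes were refitted under 17 alternatives, and 0 of these 119 fits passed an adjusted p of 0.05 (lowest 0.339). In 19 of them the sign differed. Cacna1c was at -0.092 with array weights. Cacna1h was at 0.10 with TPM and 0.017 with quantile normalization. Cacna2d1 was at 0.12 with TPM, 0.023 with quantile normalization, 0.00038 with array weights and 0.013 with voom on fragments. TPM moved the median of all genes from -0.01 to 0.13 and the split at an unadjusted p under 0.05 from 491 higher and 1020 lower to 1085 and 486. With TPM, Cacna1c was at 0.16, Cacna1d at -0.04, Cacna1g at -0.21, Cacnb2 at 0.24 and Cacna2d2 at 0.17, and of the partner genes Camk2d was at -0.05, Ahnak at 0.33, Sri at 0.33, Bin1 at 0.42, Cacng7 at 0.41 and Cacna2d3 at -0.19. Slc8a1 was at -0.27 with quantile normalization. Among the further subunits, Cacnb1 was at 0.11 with TPM and Cacnb3 at -0.046 with array weights. The causes were not tested.

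Leaving out each library in turn gave log2 differences of -0.10 to 0.12 for Cacna1c, -0.29 to -0.10 for Cacna1d, -0.55 to -0.14 for Cacna1g, -0.21 to 0.082 for Cacna1h, 0.02 to 0.20 for Cacnb2, -0.048 to 0.019 for Cacna2d1 and -0.10 to 0.16 for Cacna2d2. Cacnb1 ranged from -0.10 to 0.11 and Cacnb3 from -0.19 to 0.17. The L-type share differed by -1.12 to 2.64 points, the Cacna2d2 share by -1.35 to 3.32 points and alpha2delta per L-type pore by -0.068 to 0.14 on the log2 scale.

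Over all genes, the 1 gene at an adjusted p under 0.05 became 2 with a pseudocount of 1, 3 with a minimum of 0.1 FPKM, 3 without the trend, 0 with quantile normalization, 0 with robust variance, and 0 whenever a library was left out (0 to 0). The 1511 genes at an unadjusted p under 0.05 became 855 without sham replicate 1, 937 without VO replicate 1 and 1998 without VO replicate 2. With the replicate block these counts were 0 and 932, and Cacna1g had an unadjusted limma p of 0.029 (adjusted 0.601). The numbers do not pair the libraries, and among the 7 subunit genes the block changed no other call. Cacna1g was also at an unadjusted limma p of 0.042 without sham replicate 1.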

Other observations

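Cacna1b, the N-type pore of neurons, had 23 fragments in VO replicate 3, 1 in sham replicate 1 and 0 in the other 4 libraries. In FPKM this was 0.141 in VO replicate 3 and at most 0.00647 elsewhere. The gene was chosen after its values were seen. Among nerve markers, also chosen after their values were seen, Uchl1 was at 14.6 FPKM in VO replicate 3 and at 5.64 to 7.10 FPKM in the other libraries, and Th was at 1.05 FPKM against 0 to 0.270 FPKM. Dbh, the nerve marker of highest mean level, was not raised in that library, at 8.52 FPKM. It was at 8.94 to 9.74 FPKM in sham and at 4.79 and 9.32 FPKM in VO replicates 1 and 2. Cacna1a, the P/Q-type pore gene, was at 0.740 FPKM in that library, but at 0.709 in VO replicate 2 as well, and at 0.516 to 0.569 in the other 4.

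Cacnb3 was at 5.17 FPKM in VO replicate 1 and at 3.07 to 3.91 FPKM in the other 5 libraries. The same library had the highest immune marker sum (805 FPKM). Whether these values share a source was not tested.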
